A study of Mus musculus with 11 samples.

Results

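The 8 genes described here, Per1, Per2, Per3, Cry1, Cry2, Ciart, Bhlhe40 and Bhlhe41, encode the repressors of the circadian clock. They were taken as a gene family, by a rule that uses no measured value but was proposed with earlier results of these data known, and they are 8 of 24063 genes in the deposited tables and 8 of the 12581 genes with enough reads to be tested. All 8 passed that filter. Their RNA was measured by RNA-seq in livers of 6 mice that received A2M and 5 mice that received PBS. All were male athymic nude mice, labelled Cd1 nu/nu and named Crl:NU-Foxn1nu in the methods, which lack a thymus and thereby most T cells. The mice were 8 weeks old when human tumour cells were placed under the skin. A2M stands for A2M*, the activated form of human alpha2-macroglobulin, a plasma proteinase inhibitor whose activated form binds the receptor LRP1. After 7 days of tumour growth 5.6 mg was injected intraperitoneally and repeatedly, and the control mice received PBS in its place. The methods give 31 days of treatment. In the legend of the tumour growth figure, treatment starts at day 7 and the experiments stop at day 31. The mice lived in a cycle of 12 h day and 12 h night. Neither the labels nor the methods give the hour at which each liver was taken, the tumour line each mouse carried or a batch, so an effect of any of these and an effect of A2M cannot be told apart here.

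In the mammalian clock the activators CLOCK (or NPAS2) and BMAL1, the product of Arntl, bind E-box sequences and switch on the genes of their own repressors. PER and CRY proteins accumulate, enter the nucleus and inhibit the activators, and as they are degraded the next cycle begins. CIART, also called CHRONO, binds BMAL1 and represses it, while BHLHE40 (DEC1) and BHLHE41 (DEC2) are repressors that occupy E-boxes themselves. In the liver this loop runs in almost every hepatocyte and follows feeding, hormones and temperature, so the RNA of most of these genes rises and falls within a day.

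The loop acts on its own genes through short promoter sequences, and the stretches that hold them are shown because the members differ in how many they have. Windows from 250 bases before to 50 bases after the start site were given by RefSeq (build GRCm38.p6) for 6 of the 8 members, 7 windows in all, since Per1 has a pair of start sites. Motifs searched on both strands were the E-box CACGTG, the D-box TTATGTAA or TTACGTAA bound by DBP, TEF and HLF, the REV-ERB and ROR core AGGTCA, and the cAMP response element TGACGTCA. No motif overlapped another. Each sequence runs 5′ to 3′ along the strand of its gene, and capitals mark the motif letters.
Ciart, chr3:95882247-95882364, minus strand: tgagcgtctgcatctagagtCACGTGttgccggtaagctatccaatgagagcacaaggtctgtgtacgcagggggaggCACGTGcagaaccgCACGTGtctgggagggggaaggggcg
Per3, chr4:151044796-151044890, minus strand: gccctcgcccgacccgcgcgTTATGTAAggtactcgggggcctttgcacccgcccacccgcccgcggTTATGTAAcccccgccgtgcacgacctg
Cry1, chr10:85185089-85185134, minus strand: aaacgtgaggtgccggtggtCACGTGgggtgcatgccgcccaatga
Bhlhe41, chr6:145865548-145865593, minus strand: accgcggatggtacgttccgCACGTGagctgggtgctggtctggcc
Per1, chr11:69098763-69098837, plus strand: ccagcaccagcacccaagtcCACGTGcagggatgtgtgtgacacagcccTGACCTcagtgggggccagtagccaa

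Ciart held 3 E-boxes, which began 116, 58 and 44 bases before the start site, a number reached by 29 of 32851 mouse windows (0.0883%). Per3 held 2 copies of the D-box letters TTATGTAA, which began 205 and 158 bases before the start site, and 8 windows held 2 or more D-boxes (0.0244%). Per1, Cry1 and Bhlhe41 each had a single E-box, so 4 of the 7 member windows held this motif, which 7.15% of all windows held. The Per1 stretch also has TGACCT, the REV-ERB and ROR core read on the opposite strand, a motif found in 16.3% of all windows. The D-box was found in 1.06% and the cAMP response element in 1.79% of all windows, and the letters of this element in none of the member windows. The Cry2 window and the downstream Per1 window held none of these letters. A match is a description of the letters and does not show binding.

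**Figure D1:**
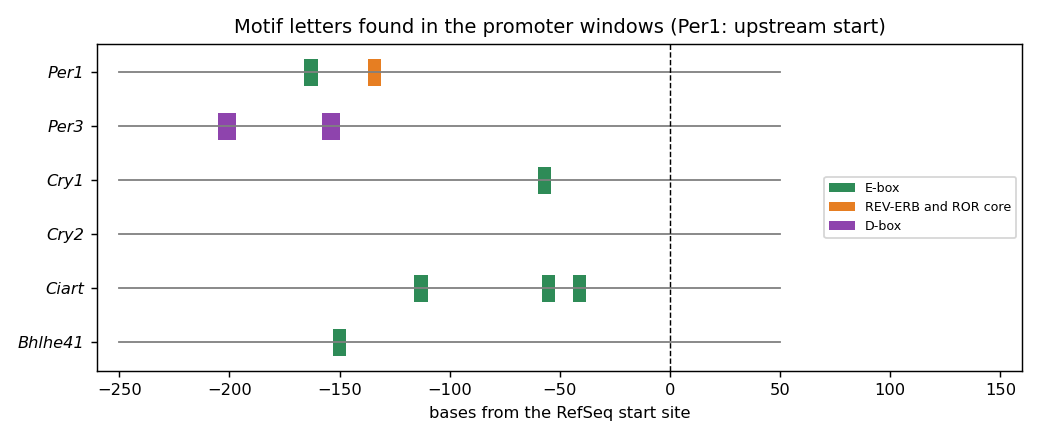
Position of motif letters in the promoter windows of 6 members, in bases from the RefSeq start site (dashed line); coloured boxes are E-boxes, D-boxes and the REV-ERB and ROR core, and grey lines span each window. Ciart has 3 E-boxes and Per3 has 2 D-boxes, and the upstream start is shown for Per1.

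Levels are given as the deposited RPKM (reads scaled to exon length and to the depth of the library), which can be compared between genes, and fold changes come from edgeR's quasi-likelihood fit of the read counts over all genes, A2M over PBS. In bulk tissue fewer cells of a type and less RNA per cell cannot be told apart. Replicates were numbered by accession within a group, and equal numbers do not pair livers. Each library has a liver number of its own, and nothing further says how the samples were taken, so the p-values measure the spread between these samples, which may be technical in part. The threshold was an adjusted p of 0.01, which 0 of the 8 members and 0.215% of all genes passed. At an adjusted p of 0.05 edgeR called Per3 and Bhlhe41, 2 of 8 members, where it called 1.22% of all genes. Neither passed 0.05 in the 6 of 11 edgeR fits that left out A2M replicate 2, 3, 4 or 5 or PBS replicate 1 or 2 (adjusted p = 0.0518 to 0.0620 for Per3 and 0.0588 to 0.0934 for Bhlhe41). DESeq2 called 4 members higher at 0.01, Per3, Cry2, Ciart and Bhlhe41, against 2.28% of all genes, and the same 4 passed where edgeR's exact test and DESeq2 were both required, against 1.52%. At an unadjusted p of 0.05 the edgeR fit had 6 of 8 members higher and 0 lower, against 6.38% of all genes higher. The log2 fold change was positive in 7 of 8 members with a median of 1.01, while over all genes tested 6149 of 12581 were positive and the median was -0.01. Ciart, Per2 and Per3 are among the genes that the study itself discusses from these livers and are not independent evidence of a direction.

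Period genes come next, as the PER proteins form the scaffold of the repressor complex. Per3, whose product is the least required of the PER proteins for rhythm in mice, had 2.22, 3.49, 3.47, 3.49, 4.36 and 2.11 RPKM in the A2M livers, replicates 1 to 6, against 0.330, 0.786, 0.199, 1.23 and 0.913 RPKM in the PBS livers, replicates 1 to 5. Every A2M liver was above every PBS liver. The group means were 3.19 ± 0.866 RPKM in A2M livers and 0.691 ± 0.423 RPKM in PBS livers (SD, n = 6 and 5), and the fitted difference was 4.58-fold (log2 2.20, SE 0.398, edgeR adjusted p = 0.0229). DESeq2 gave an adjusted p of 1.28e-06 for Per3 and limma 0.00673 on log2(RPKM + 1), whereas limma on log2(RPKM + 0.1) gave 0.0122, edgeR's robust fit 0.0289 and the edgeR fits without 1 liver up to 0.0620.

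Per2 encodes a PER protein that is needed for a stable rhythm and binds CRY proteins directly. Its level was 3.20, 3.78, 5.57, 7.30, 6.62 and 1.70 RPKM in A2M livers, against 1.92, 1.89, 0.718, 3.13 and 2.30 RPKM in PBS livers. A2M replicate 6 lay among the PBS livers and PBS replicate 3 lay below all others, while A2M replicates 2 to 5 were above all PBS livers. A2M replicate 1 and PBS replicate 4 lay close, in an order that depended on the scaling. The difference of 2.36-fold (log2 1.24, SE 0.387) did not pass the test (edgeR adjusted p = 0.143), nor did it without A2M replicate 6 (log2 1.41, adjusted p = 0.0566).

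Per1, the period gene that answers most quickly to glucocorticoids and cAMP, had the smallest difference of the 8. The levels were 6.11, 3.88, 5.04, 4.13, 3.02 and 3.47 RPKM in A2M livers, against 1.44, 6.11, 1.74, 3.46 and 5.71 RPKM in PBS livers. The groups overlapped, and PBS replicates 1 and 3 had the lowest values of the 11. A2M replicate 1 and PBS replicates 2 and 5 had the highest, in an order that depended on the scaling. Of these, A2M replicate 1 and PBS replicate 2 stood apart in their markers of other cells. A2M replicate 1 had a summed level of 239.6 RPKM for 8 Kupffer cell genes, and PBS replicate 2 had 437.6 RPKM for 7 adrenal genes and 950.2 RPKM for 7 fat genes. The part of these cells in the Per1 level was not tested. On the log2 scale edgeR fitted a difference of 0.24 (SE 0.336), with an adjusted p of 0.808. Without PBS replicate 2 the Per1 log2 fold change was 0.44, without A2M replicate 1 it was 0.11, and without both livers it was 0.31. Leaving out other livers moved it as much, from 0.03 without PBS replicate 1 to 0.46 without PBS replicate 5.

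Cry genes encode the proteins that inhibit CLOCK and BMAL1 most directly, and the members of this pair had fold changes of opposite sign. Cry2 had 6.88, 6.52, 10.5, 11.2, 9.94 and 9.07 RPKM in A2M livers, against 5.47, 5.19, 3.42, 5.28 and 7.07 RPKM in PBS livers. Only PBS replicate 5 reached the A2M livers, above A2M replicates 1 and 2. The difference was 1.72-fold (log2 0.78, SE 0.180), which missed the threshold in edgeR (adjusted p = 0.0550) and passed it in DESeq2 (adjusted p = 0.00232). Of all members Cry2 had the smallest standard error.

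Cry1 was the only member with a negative fold change. Its level was 1.88, 1.41, 3.36, 3.76, 4.52 and 1.46 RPKM in A2M livers, against 5.57, 3.55, 4.85, 2.99 and 2.21 RPKM in PBS livers. The groups overlapped, with A2M replicates 1, 2 and 6 below all PBS livers and A2M replicate 5 above 3 of the 5. On the log2 scale the edgeR difference was -0.47 (SE 0.324, with an adjusted p of 0.553) and stayed between -0.68 and -0.32 when any 1 liver was left out.

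Ciart had the largest fold change of the 8. It was at 13.2, 11.4, 14.9, 11.0, 7.18 and 4.56 RPKM in A2M livers, against 0.456, 0.736, 0.159, 3.32 and 3.46 RPKM in PBS livers. The groups did not overlap, but the PBS livers fell into 3 with very little Ciart RNA and 2, replicates 4 and 5, that came close to A2M replicate 6. The means were 10.4 ± 3.85 RPKM in A2M livers and 1.63 ± 1.62 RPKM in PBS livers (SD, n = 6 and 5). The fitted difference was 6.20-fold (log2 2.63, SE 0.627), with an adjusted p of 0.0636 in edgeR and 0.00956 in DESeq2. The PBS values rest on 22, 40, 7, 215 and 174 reads, so the lowest of them are the least precise.

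Bhlhe41, the DEC2 gene, had 1.18, 1.58, 1.07, 0.786, 0.705 and 1.49 RPKM in A2M livers, against 0.137, 0.168, 0.0207, 0.334 and 0.408 RPKM in PBS livers. Again no PBS liver reached an A2M liver, and PBS replicates 4 and 5 were the highest of their group. The difference was 5.27-fold (log2 2.40, SE 0.494, edgeR adjusted p = 0.0370, DESeq2 adjusted p = 4.01e-05). The PBS levels came from 29, 40, 4, 95 and 90 reads. The exons of Bhlhe41 share 1280 bases with Gm43909 on the opposite strand, and the library kit did not keep the strand, so reads there cannot be told apart.

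Bhlhe40, the DEC1 gene, was the most abundant member. It had 30.8, 51.1, 42.3, 32.1, 29.7 and 27.9 RPKM in A2M livers, against 27.1, 21.02, 11.4, 22.3 and 31.05 RPKM in PBS livers. PBS replicate 5 lay above 3 of the 6 A2M livers, and the other 4 PBS livers lay below all of them. The difference was 1.60-fold (log2 0.68, SE 0.228) and did not pass the test (edgeR adjusted p = 0.172). Overlaps of exons with genes on the opposite strand cover 118 bases for Bhlhe40 (0610040F04Rik) and 295 bases for Cry2 (D930015M05Rik).

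**Figure D2:**
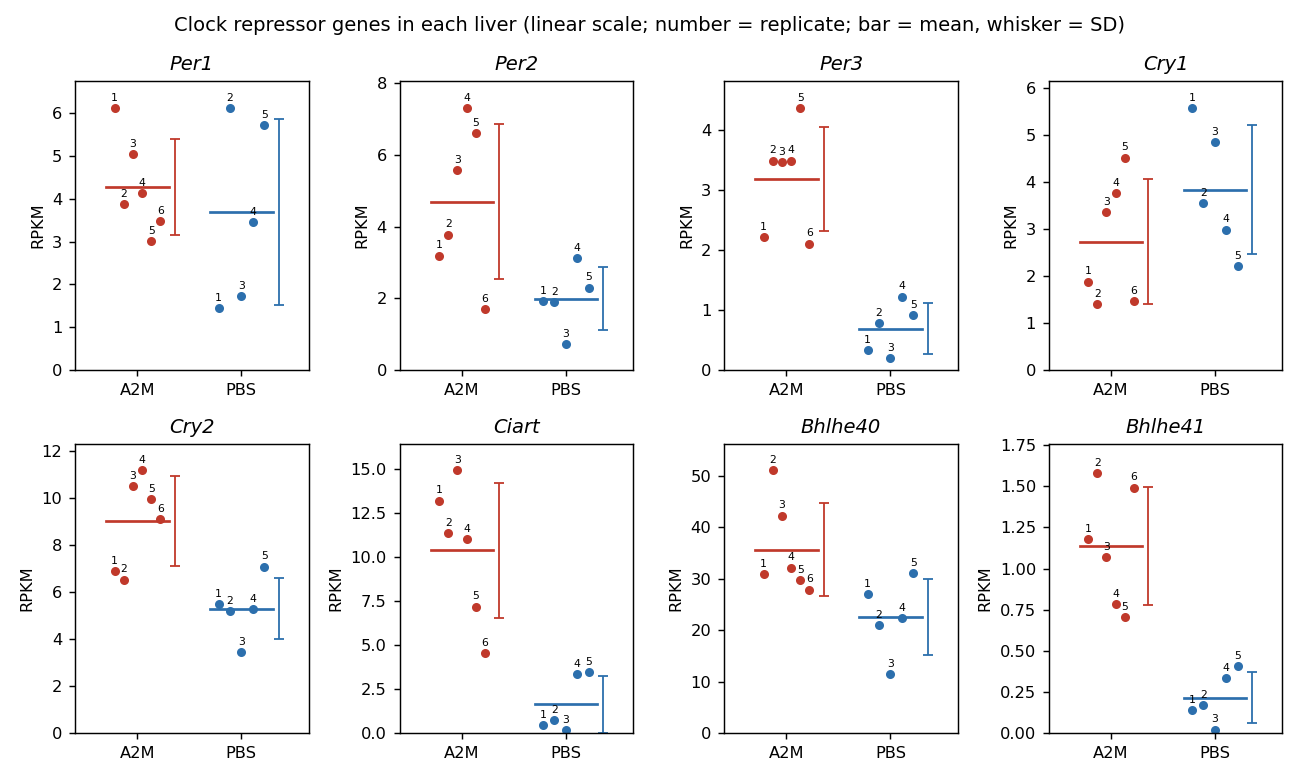
RPKM of the 8 members in each liver on linear axes, A2M livers in red and PBS livers in blue; numbers are replicates, horizontal bars the group means and whiskers the SD. The groups do not overlap for Per3, Ciart and Bhlhe41, and overlap for Per1, Per2, Cry1, Cry2 and Bhlhe40.

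**Figure D3:**
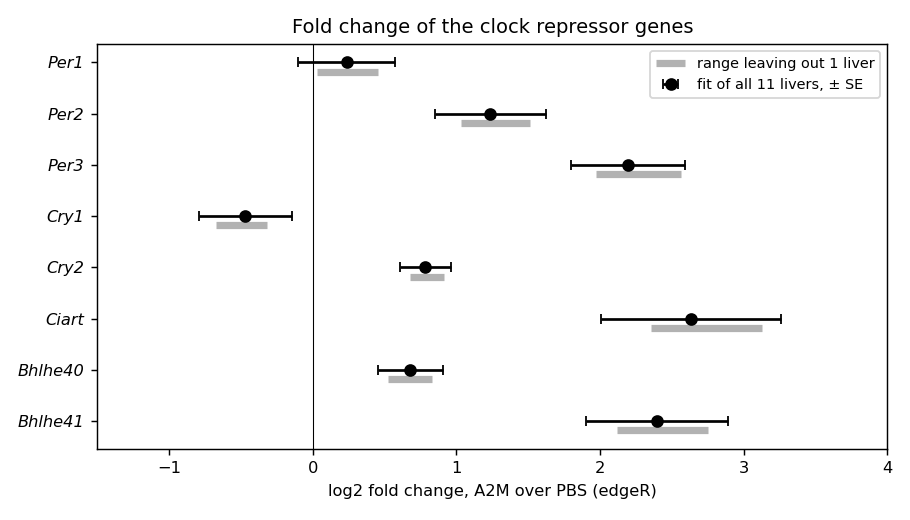
Log2 fold change of each member, A2M over PBS, from the fit of all 11 livers (points, whiskers are 1 SE), with the range of values when 1 liver is left out (grey bars). Ciart, Bhlhe41 and Per3 lie above 2, and Cry1 alone lies below 0.

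For Per3, Ciart and Bhlhe41, 3 of 8 members, every A2M liver was above every PBS liver, which held for 1.01% of all genes tested and for 2.59% in either direction. Leaving out a liver cannot make separate groups overlap, so this count could stay or rise but not fall. It was 3 without any single liver other than PBS replicate 5, where 2.92% to 4.63% of all genes did not overlap in either direction. Without PBS replicate 5 it was 5, with Cry2 and Bhlhe40 added, where 4.1% of all genes did not overlap in either direction.

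Ordered by mean RPKM, the A2M livers had Bhlhe40 (35.7), Ciart (10.4), Cry2 (9.01), Per2 (4.69), Per1 (4.27), Per3 (3.19), Cry1 (2.73) and Bhlhe41 (1.14). In the PBS livers the order was Bhlhe40 (22.6), Cry2 (5.28), Cry1 (3.83), Per1 (3.69), Per2 (1.99), Ciart (1.63), Per3 (0.691) and Bhlhe41 (0.213). Bhlhe40 stood above the next gene in each group with no overlap of the ranges over livers. The ranges of all other neighbours overlapped, but within each liver Cry2 was above Per2 in 6 of 6 A2M livers and Per3 was above Bhlhe41 in 5 of 5 PBS livers. The order of the remaining neighbours differed between livers of the same group. Ciart had rank 2 in A2M livers and rank 6 in PBS livers, and Cry1 had rank 7 in A2M livers and rank 3 in PBS livers.

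The paralogues were then compared with each other, since a gene past a threshold beside a paralogue that is not does not show that they differ. For each liver the log2 ratio of a pair was taken, and its difference between A2M and PBS livers was set against every other split into 6 and 5 livers (exact permutation test, two-sided, Benjamini-Hochberg adjustment over 5 pairs). The smallest p that these splits allow is 0.00433. The ratio of Cry1 to Cry2 averaged -2.24 ± 0.519 in A2M livers and -0.91 ± 0.830 in PBS livers (log2, SD, n = 6 and 5), a difference of -1.33 (exact permutation p = 0.0173, adjusted p = 0.0216). PBS replicate 5, at -2.08, was the only PBS liver within the range of the A2M livers.

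Per1 over Per3 averaged 0.07 ± 0.661 in A2M livers and 2.08 ± 0.652 in PBS livers, a log2 difference of -2.01 (exact permutation p = 0.00433, adjusted p = 0.00722). Per2 over Per3 averaged 0.40 ± 0.478 in A2M livers and 1.59 ± 0.526 in PBS livers, a log2 difference of -1.20 with the same p-values by the exact permutation test. Per3 thus differed more between the groups than either of its paralogues, with no overlap of the ratios. Per1 over Per2 averaged -0.33 ± 0.881 in A2M livers and 0.49 ± 0.888 in PBS livers, and this difference of -0.81 was within the spread (exact permutation p = 0.156, adjusted p = 0.156).

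Bhlhe40 over Bhlhe41 averaged 4.01 ± 0.458 in A2M livers and 6.07 ± 1.04 in PBS livers, a log2 difference of -2.06 (exact permutation p = 0.00433, adjusted p = 0.00722). The largest A2M ratio, 4.40, was below the smallest PBS ratio, 5.05. In the DEC pair, then, the rarer gene differed more.

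**Figure D4:**
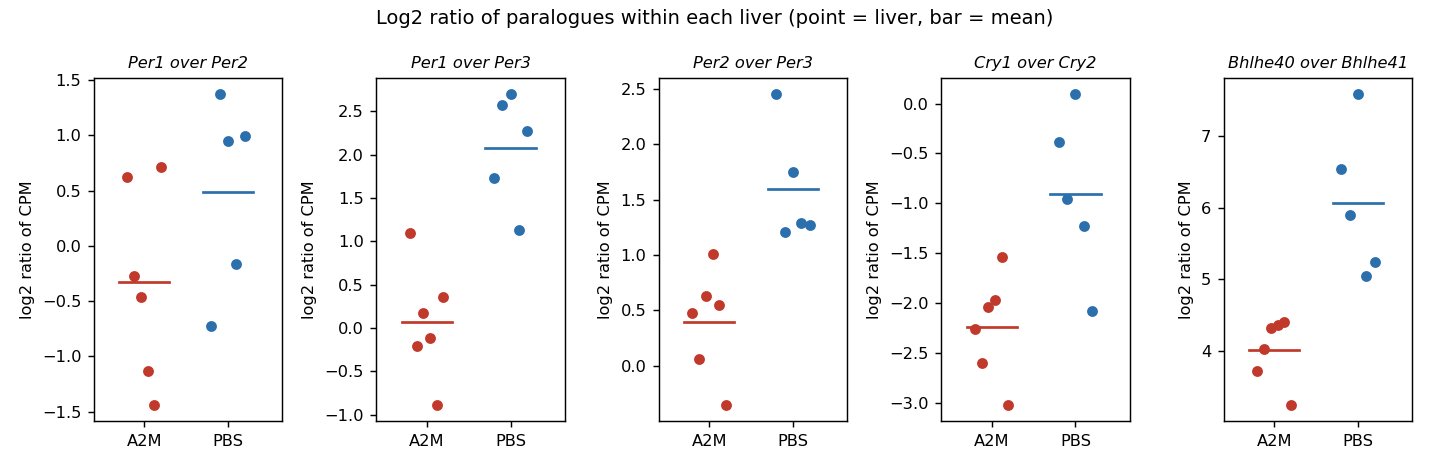
Log2 ratio of CPM of 5 pairs of paralogues in each liver (points) with group means (bars), A2M in red and PBS in blue; each panel has its own axis. The groups do not overlap for Per1 over Per3, Per2 over Per3 and Bhlhe40 over Bhlhe41.

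Arntl, the gene of the activator BMAL1, had 0.734 ± 0.730 RPKM in A2M livers and 6.87 ± 2.90 RPKM in PBS livers (SD, n = 6 and 5), a difference of -3.18 on the log2 scale in edgeR (adjusted p = 0.0108). The log2 ratio of each member to Arntl differed between the groups, by 2.90 for Cry1 up to 6.76 for Ciart (exact permutation tests, adjusted over the 8 ratios, p = 0.00866 for Per2 and Cry1 and 0.00577 for the other 6). Exons of Arntl share 33 bases with Gm45355 on the opposite strand. The difference in Arntl itself enters each of the 8 ratios in full, so that the ratio passed also for Per1 (0.24) and Cry1 (-0.47), whose own fold changes did not, and the ratios are no evidence on the members apart from Arntl.

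The spread within the groups was wide for several members but not for all. Among A2M livers Per2 had the widest spread of the members, with an SD of log2 CPM (read counts scaled to library depth) of 0.78, at the percentile 94.8 of all genes tested, followed by Cry1 at the percentile 93.4 and Ciart at 90.4. Among PBS livers the SD of Ciart was 1.82, at the percentile 99.6, and that of Bhlhe41 was 1.49, at the percentile 99.3. Per3 and Per1 followed in PBS livers, at the percentiles 97.7 and 96.4. Cry2 had the least spread of the members, at the percentiles 61.7 in A2M livers and 71.4 in PBS livers. Among A2M livers Bhlhe40, Per1 and Per3 were at 67.8, 69.1 and 77.1. The lowest PBS values of Ciart and Bhlhe41 rest on 7 and 4 reads, and the percentiles are not matched for level. Ciart differed 3.27-fold between the highest and the lowest A2M liver, against 21.7-fold between the highest and the lowest PBS liver. For Bhlhe41 the same ratio was 2.24 in A2M livers and 19.7 in PBS livers.

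Some livers were high or low for several members. A2M replicate 6, whose liver number stands away from those of the other A2M livers, had the lowest Per2, Per3, Ciart and Bhlhe40 of its group, the most Arntl, and yet the second highest Bhlhe41 of all livers. PBS replicate 3 had the lowest value of all 11 livers for Per2, Per3, Cry2, Ciart, Bhlhe40 and Bhlhe41, and the second highest for Cry1 and Arntl. PBS replicates 4 and 5 had the most Per3, Ciart and Bhlhe41 of the PBS livers and the least Arntl.

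**Figure D5:**
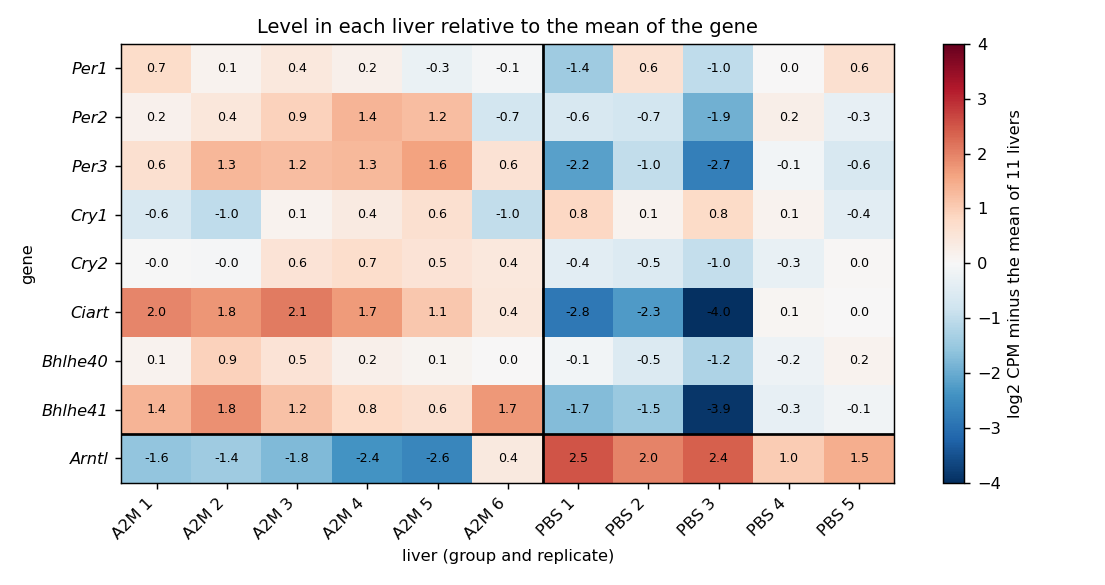
Log2 CPM of the 8 members and Arntl in each liver, minus the mean of the gene over 11 livers; A2M livers are left of the black line and PBS livers right of it. A2M 6 has an Arntl level between the other A2M livers and the PBS livers, and PBS 3 has the lowest Ciart and Bhlhe41.

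Within the groups, deviations from the group means were compared over the 11 livers as a description, and the points share library and liver. Per3 and Ciart deviated together (Pearson r = 0.84), as did Ciart and Bhlhe41 (0.82), Per2 and Per3 (0.80) and Bhlhe40 and Bhlhe41 (0.77). Spearman's rho was lower for these pairs, at 0.70, 0.63, 0.71 and 0.53. Cry1 ran against Bhlhe41 (r = -0.67, rho = -0.85) and Per1 (r = -0.54, rho = -0.43). Per2 had the strongest relation to Arntl, with r = -0.87 and rho = -0.85.

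Among 11162 other genes with a mean CPM of at least 1, the genes with the deviations most like a member's were found in the same way. With so many candidates and 11 livers some high values can be reached by selection alone, and the values say nothing of shared function. Exons of Actn1, Atg16l2, Cstf2, Mpzl2, Pfkfb1, Slc5a6 and Usp49 overlap exons on the opposite strand. On the same strand, exons of Usp49 share 4392 bases with Gm20517 and those of Cstf2 share 82 bases with Mir3112. Ciart was most like Mtss1 (r = 0.96), then the D-box-binding factors Tef (0.89) and Dbp (0.86). Mtss1 stayed among the 3 genes nearest to Ciart with Spearman's rho and without A2M replicate 6, while Tef and Dbp did not in either. Per3 was most like Tef (0.93), Rfesd (0.91) and Gm15408 (0.90). For Per2 they were Slc5a6 (0.92), Gjb2 (0.90) and Gm15408 (0.88), and for Per1 Rnf145 (0.89), Atg16l2 (0.87) and Zdhhc14 (0.83).
For Cry2 they were Mpzl2 (0.96), Srp72 (0.96) and Cstf2 (0.94), and for Cry1 Usp49 (0.92), Gda (0.91) and Samd10 (0.90). Bhlhe40 was nearest to Pfkfb1 (0.91), Zfp472 (0.87) and Zfp398 (0.84), and Bhlhe41 to Tenc1 (0.94), Actn1 (0.91) and 2610306M01Rik (0.91).

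The rest of the clock showed where the repressors stood. Of the activators 3 of 4 were tested, 1 fell and 0 rose at an adjusted p of 0.01, and the median log2 fold change was -3.18. Npas2, which encodes the relative of CLOCK, was the call, at log2 -4.47 (edgeR adjusted p = 0.00533), and Clock itself was at -0.55 (0.119). Of the REV-ERB and ROR receptors, which repress and activate Arntl, 4 of 5 were tested with 0 calls and a median of 0.34. Nr1d2 (REV-ERB beta) was at log2 1.06 (edgeR adjusted p = 0.0194), whereas Nr1d1 (REV-ERB alpha) had 0.05 (0.979) and Rora -0.17 (0.648).

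The D-box-binding factors Dbp, Tef and Hlf and their opponent Nfil3 had 0 calls among 4 and a median of 1.05. Dbp was at log2 3.29 (edgeR adjusted p = 0.0503), Tef 1.74 (0.0229), Hlf 0.36 (0.506) and Nfil3 -1.76 (0.0153). The Dbp level was 30.4 ± 7.26 RPKM in A2M livers and 3.04 ± 3.35 RPKM in PBS livers (SD, n = 6 and 5). These proteins are known to bind the D-box letters, of which the Per3 window holds 2 copies. Whether they act on Per3 in these livers was not tested.

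The kinases, ubiquitin ligases and partners that act on PER and CRY proteins were followed as a list. Of 22 tested, 0 passed in either direction, 11 were positive and the median was 0.004. Usp2, a deubiquitinase of clock proteins, had the smallest p, at log2 3.01 (edgeR adjusted p = 0.0134), followed by Btrc (-0.35, 0.152), Csnk1e (-0.38, 0.298) and Fbxl21 (-0.44, 0.368). Csnk1d, a kinase that marks PER proteins for degradation, had -0.06 (0.775).

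Of 16 known outputs of the liver clock, 2 rose, 0 fell, 11 were positive and the median was 0.92. Wee1, a kinase that holds back mitosis and a gene with E-boxes, rose by 2.96 on the log2 scale (edgeR adjusted p = 0.00284), and Por, the electron donor of cytochrome P450 enzymes, rose by 1.37 (0.00632). Usp2, which is also on this list, had 3.01 (0.0134), and Tsc22d3 had -0.99 (0.0302).

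Targets of signals that can act on Per genes outside the loop were read as lists in the same fit. Whether these signals bear on the members was not tested. Of 14 heat shock genes driven by HSF1, 0 passed the threshold, 14 were positive and the median log2 fold change was 0.62, with 1.14 for Hsp90aa1, 1.18 for Hspa4l, 1.03 for Hsph1 and 1.83 for Hspb1 (edgeR adjusted p = 0.0274, 0.0274, 0.0282 and 0.0518). Of 14 glucocorticoid targets, Per1 among them, 0 rose and 2 fell, 3 were positive and the median was -0.39. The genes that fell were Cdkn1a, the cell cycle inhibitor p21 (-3.69, adjusted p = 0.00201), and Pnrc1 (-1.48, 0.00827). Tsc22d3 (-0.99, 0.0302) and Mt2 (3.77, 0.119) did not pass.
Of 13 tested cAMP and immediate early genes 1 fell, G6pc, the last enzyme of glucose release (-2.37, edgeR adjusted p = 0.00632), and the median was 0.06. Nr4a1 (-3.21, 0.119), Crem (-0.41, 0.221) and Jun (-0.72, 0.385) did not pass. Of 13 hypoxia targets 0 passed, and the median was -0.001, with Bnip3 at 0.61 (0.0229), Ndrg1 at -1.63 (0.0514), Pgk1 at 0.29 (0.127) and Ldha at -0.35 (0.228).

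Exons on the opposite strand also overlap those of Dbp, Tef, Nr1d1, Rora, Usp2, Btrc, Csnk1d, Csnk1e, Cdkn1a, Mt2, Crem, Jun, Bnip3 and Ndrg1, whose reads there cannot be assigned. Of the genes called in these lists, Cdkn1a kept its call in each of 11 fits that left out 1 liver (largest edgeR adjusted p 0.00823), and Wee1 in 7, losing it without A2M replicate 3 or PBS replicate 1, 2 or 3 (up to 0.0134). The call of Npas2 held in 3 of these fits, without A2M replicate 6 or PBS replicate 4 or 5 (otherwise up to 0.0193). Por kept its call only without A2M replicate 6 or PBS replicate 4 (otherwise up to 0.0219), Pnrc1 only without A2M replicate 6 or PBS replicate 5 (up to 0.0310), and G6pc only without A2M replicate 1 or PBS replicate 4 (up to 0.0206).

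The libraries held 23545121 to 37357134 counted reads in A2M livers and 31513210 to 46381692 in PBS livers. Over all genes 10 were called higher and 17 lower. Hepatocyte markers summed to 53501 to 64708 RPKM in A2M livers and 45226 to 70218 RPKM in PBS livers, so their summed RNA was abundant in every library. The largest part was Alb, with a mean of 33058 RPKM in A2M livers and 32927 RPKM in PBS livers. Ass1, also on this list, had 0 RPKM in every liver, so no read was assigned to it. The reason was not tested, and the value does not show that these livers lack its RNA. The 4 adrenal and 2 fat markers that were tested had negative fold changes. Adrenal markers summed to 2.66 to 12.8 RPKM in A2M livers and fat markers to 4.30 to 7.53 RPKM, against at most 8.36 and 20.3 RPKM in the PBS livers other than replicate 2, which held most of this RNA. Kupffer cell markers were positive in 8 of 8 genes with 0 calls, at 49.6 to 239.6 RPKM in A2M livers and 36.3 to 101.2 RPKM in PBS livers, and cholangiocyte markers reached 152.3 RPKM in PBS replicate 1. With PBS replicate 2 and A2M replicate 1 left out together, the log2 fold changes were 2.29 for Per3, 2.34 for Ciart, 2.28 for Bhlhe41 and 0.82 for Cry2 (edgeR adjusted p = 0.0572, 0.149, 0.0997 and 0.0972).

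In the mouse genome (GRCm38, GENCODE M21) Per1 lies on chr11:69095217-69109960 and Bhlhe40 on chr6:108660629-108666925, both on the plus strand. The others lie on the minus strand, Per2 on chr1:91415982-91459324, Per3 on chr4:151003652-151044665, Cry1 on chr10:85131700-85185064, Cry2 on chr2:92403646-92434043, Ciart on chr3:95878503-95882251 and Bhlhe41 on chr6:145858243-145865558. Counted exon lengths, on which the RPKM rest, ran from 1395 bases for Ciart to 6124 bases for Bhlhe41.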

How the data were processed

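Total RNA of 11 livers was made into TruSeq RNA v2 libraries, which do not keep the strand, and read on an Illumina HiSeq. Per the methods and the submitters' processing notes, bcl2fastq 1.8.4, TopHat2 (genome mm10) and featureCounts were used. The authors deposited read counts, not normalized, for 24063 RefSeq genes. The RPM values deposited by the authors are these counts scaled to library depth, and 100% gave whole reads (tolerance 0.001) that equalled the counts. An edgeR fit of these reads therefore repeats the fit of the counts, with the same 27 genes called, and is no separate check. The deposited RPKM values were divided by exon length by the authors.

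Counts were fitted with edgeR 4.0.16 in R 4.3.3 (TMM, filterByExpr, quasi-likelihood test, Benjamini-Hochberg over 12581 genes, adjusted p under 0.01, no covariate). DESeq2 1.42.0 and limma 3.58.1 (log2(RPKM + 0.1) or + 1) were alternatives, with RLE or no scaling, no filter, a robust fit, a threshold of 0.05 and each liver left out. Ratios used log2 CPM with a prior count of 2, or 0.5. No pair of libraries was a repeat (smallest chi-square per degree of freedom 37.2). Named genes were the members, Arntl, Usp2, Wee1, the 3 genes most like each member and up to 4 genes with the smallest p per list. A gene that this rule picks is not reported here. Csnk1d was added for its role after its values were seen. The members and lists were chosen with earlier results of these data known. The tests were checked on simulated data.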

Additional observations from a re-analysis of the deposited data

How the results depend on the processing

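All 8 members kept the direction of their fold change under all 21 alternatives run for each. Among these, the robust fit and the threshold of 0.05 had the fold changes of the main fit, so they are no check of direction. The 5 paralogue and 8 Arntl ratios kept their side of 0.05 under all 13 alternatives run for them. The number of members called was 0 in edgeR's quasi-likelihood test, 4 in DESeq2, 4 with the exact test and DESeq2 together and 2 at an adjusted p under 0.05. It was 0 in each of the 11 fits that left out 1 liver. These counts do not include limma on log2(RPKM + 1), where Per3 passed 0.01 (limma adjusted p = 0.00673) and Bhlhe41 did not (0.0103). Over all genes 27 were called, against 284 by DESeq2, 188 by the exact test with DESeq2, 154 at 0.05 and 10 without PBS replicate 2 and A2M replicate 1. Leaving out 1 liver gave 6 (A2M replicate 3, or PBS replicate 3) to 35 (A2M replicate 6), with 7 or 8 without A2M replicates 2 or 5 or PBS replicates 1 or 2, 14 without A2M replicate 4 and 17 without A2M replicate 1 or PBS replicate 4. The cause was not tested. Members with groups apart numbered 3 to 5 when 1 liver was left out, 5 without PBS replicate 5, a count that cannot fall when a liver is removed. No paired analysis was possible because the labels give each liver its own number. Spearman's rho in place of Pearson's r kept 10 of the 24 genes most like a member, and leaving out A2M replicate 6 kept 12. Low counts of Ciart and Bhlhe41 in PBS livers limit the precision of their fold changes. No time of day is known, and 1 sampling of each mouse gives no phase.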
